A study of Homo sapiens with 18 samples.

Results

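The genes described here are 37 genes of glycolysis and of the transcriptional response to low oxygen, measured in 3 NK/T cell lymphoma cell lines given icaritin or the solvent DMSO. They were chosen by symbol as a pathway set, with earlier results of these data known, and found in the files by NCBI Gene ID. They comprise 2 glucose transporter genes, 15 genes of the core enzymes from hexokinase to pyruvate kinase, 3 PFKFB genes, 7 genes of pyruvate and lactate handling, HIF1A, and 9 targets of hypoxia-inducible factor (HIF) outside glucose metabolism. Of the 37, 36 had a count in at least 1 library and 35 had enough counts to be tested, out of 14396 genes tested and 21662 listed in the series. The 2 genes not tested were ADM, with 0 counts in every library, and EGLN3, with single counts in 2 libraries.

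RNA was sequenced from 18 libraries in 6 groups of 3: SNK-10 with icaritin, SNK-10 with DMSO, SNT-8 with icaritin, SNT-8 with DMSO, SNT-16 with icaritin and SNT-16 with DMSO. All were collected at 12 h, and all are labelled as wild type (WT). Icaritin is a prenylated flavonoid of Epimedium plants; its dose is not given in the sources used here. Each line is an established tumour cell line, so differences between lines are differences between these 3 lines, and nothing in the labels says that the 3 replicates of a group were separate cultures, so that p-values measure the spread between these libraries only.

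Glycolysis splits glucose into pyruvate, which is either reduced to lactate and exported or passed into mitochondria for oxidation by pyruvate dehydrogenase. HIF is a dimer of an oxygen-labile alpha subunit, such as HIF1A, and the stable subunit ARNT; prolyl hydroxylases of the EGLN family mark the alpha subunit for degradation through VHL when oxygen and iron are present. Stabilised HIF raises transcription of glucose transporters, of most glycolytic enzymes, of PDK1, which switches pyruvate dehydrogenase off, and of genes for vessel growth, collagen hydroxylation and histone demethylation. In activated lymphocytes and their tumours the same enzymes also respond to MYC and to growth factor signalling.

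Library depth, as the total of expected counts, lay between 9526431 and 10100453. Of 12 NK and T cell markers, 12 averaged at least 1 FPKM in each SNK-10 group and 11 in each SNT group (summed level 1541 to 3395 FPKM). The exception, GNLY, averaged 0.30 to 0.54 FPKM in the SNT groups, against 91.95 and 98.52 FPKM in SNK-10. The summed level of 5 B cell markers did not exceed 0.78 FPKM, and that of 6 myeloid markers lay between 18.4 and 26.5 FPKM. That of 8 epithelial and fibroblast markers lay between 3.51 and 4.67 FPKM after icaritin and between 2.05 and 3.87 FPKM after DMSO. The mitochondrial ribosomal RNA gene RNR2 took 4.59% to 5.12% of counts after icaritin and 1.501% to 1.553% after DMSO in SNK-10, 2.12% to 2.78% and 1.19% to 1.33% in SNT-8, and 1.65% to 1.77% and 0.83% to 0.889% in SNT-16; scaling without mitochondrial genes left each count of members called within 1.5 times of that reported. Icaritin replicate 2 of SNT-8 stood apart from its replicates (a mean chi-square per gene of 5.96 and 8.18, against 3.07 between the other 2), and icaritin replicate 3 of SNK-10 did so less (3.41 and 4.13, against 1.53). Of the 35 tested members, 27 had their highest SNT-8 icaritin level in that replicate 2, compared with 35.9% of all genes tested, so SNT-8 calls that it decides, or whose size it moves by over 1.5 times, are also given without it.

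With icaritin most of the 7 tested HIF targets outside glucose metabolism rose in each line, and the core enzymes had smaller median changes. In a separate list of 25 further tested HIF targets, none of them members, 48% were called higher in each line and 16% to 20% lower. Of all genes, 21.2% to 24.4% were called higher and 20.8% to 25% lower. PDK1, the kinase that turns pyruvate dehydrogenase off, stood 2.45-fold above DMSO in SNK-10, 3.40-fold in SNT-8 and 2.91-fold in SNT-16. KDM3A, a histone demethylase, was 2.09-, 2.98- and 2.66-fold higher in the same order, and VEGFA, the vascular growth factor, 2.68-, 2.18- and 1.87-fold. The pyruvate kinase gene PKM did not pass the test in any line, with fold changes of 0.98, 0.99 and 1.05. HK2, the inducible hexokinase, fell to 0.54 of its DMSO level in SNK-10, and PGK1, an ATP-forming enzyme, rose in the 2 SNT lines. In bulk RNA, a change in the share of cells that express a gene and a change in RNA per cell cannot be told apart.

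Each response was tested with edgeR's quasi-likelihood test over all 14396 genes, with Benjamini-Hochberg adjustment and a threshold of 0.05. Among the 35 members, 15 rose and 5 fell in SNK-10, beside 24.4% of all genes called higher, 24% called lower and 48.4% called in either direction. Without icaritin replicate 3 of SNK-10, 14 members rose and 5 fell, beside 3265 higher and 3352 lower of 14615 genes. SNT-8 had 20 members higher and 2 lower, beside 24%, 25% and 49.1% of all genes. Without icaritin replicate 2 of SNT-8, 18 members rose and 4 fell, beside 3192 higher and 3363 lower of 14601 genes. SNT-16 had 18 higher and 3 lower, beside 21.2%, 20.8% and 42%. Over the mean of the 3 responses, 23 rose and 5 fell, beside 31.7%, 30% and 61.7%. The members were gathered around a pathway with earlier results of these data known, and several share regulators, so no test was run on these counts.

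The calls of the 3 lines were set side by side. There were 11 members higher in all 3 lines, beside 13% of all genes: SLC2A3, GPI, PFKL, ALDOA, PDK1, HIF1A, VEGFA, NDRG1, KDM3A, P4HA1 and BHLHE40. HK1 alone was lower in all 3, beside 14.3% of all genes. Another 16 passed in some lines with no opposite calls, and 6 passed in none: PFKP, ALDOC, PKM, LDHB, MPC1 and ANKRD37. Fitted to the 6 libraries of 1 line alone, PKM in SNT-16 (0.07, adjusted p = 0.0451), ANKRD37 in SNT-16 (0.61, adjusted p = 0.0426) and MPC1 in SNK-10 (0.34, adjusted p = 0.0217) passed as higher. The same fits ended the SNT-8 calls of HK1 (adjusted p = 0.0833), GAPDH (0.0586) and LDHA (0.0641). PFKFB2 had opposite calls, of which the one in SNT-16 rests on counts of 0, 0 and 0 after icaritin, against 1, 3 and 1 after DMSO.

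**Figure D1:**
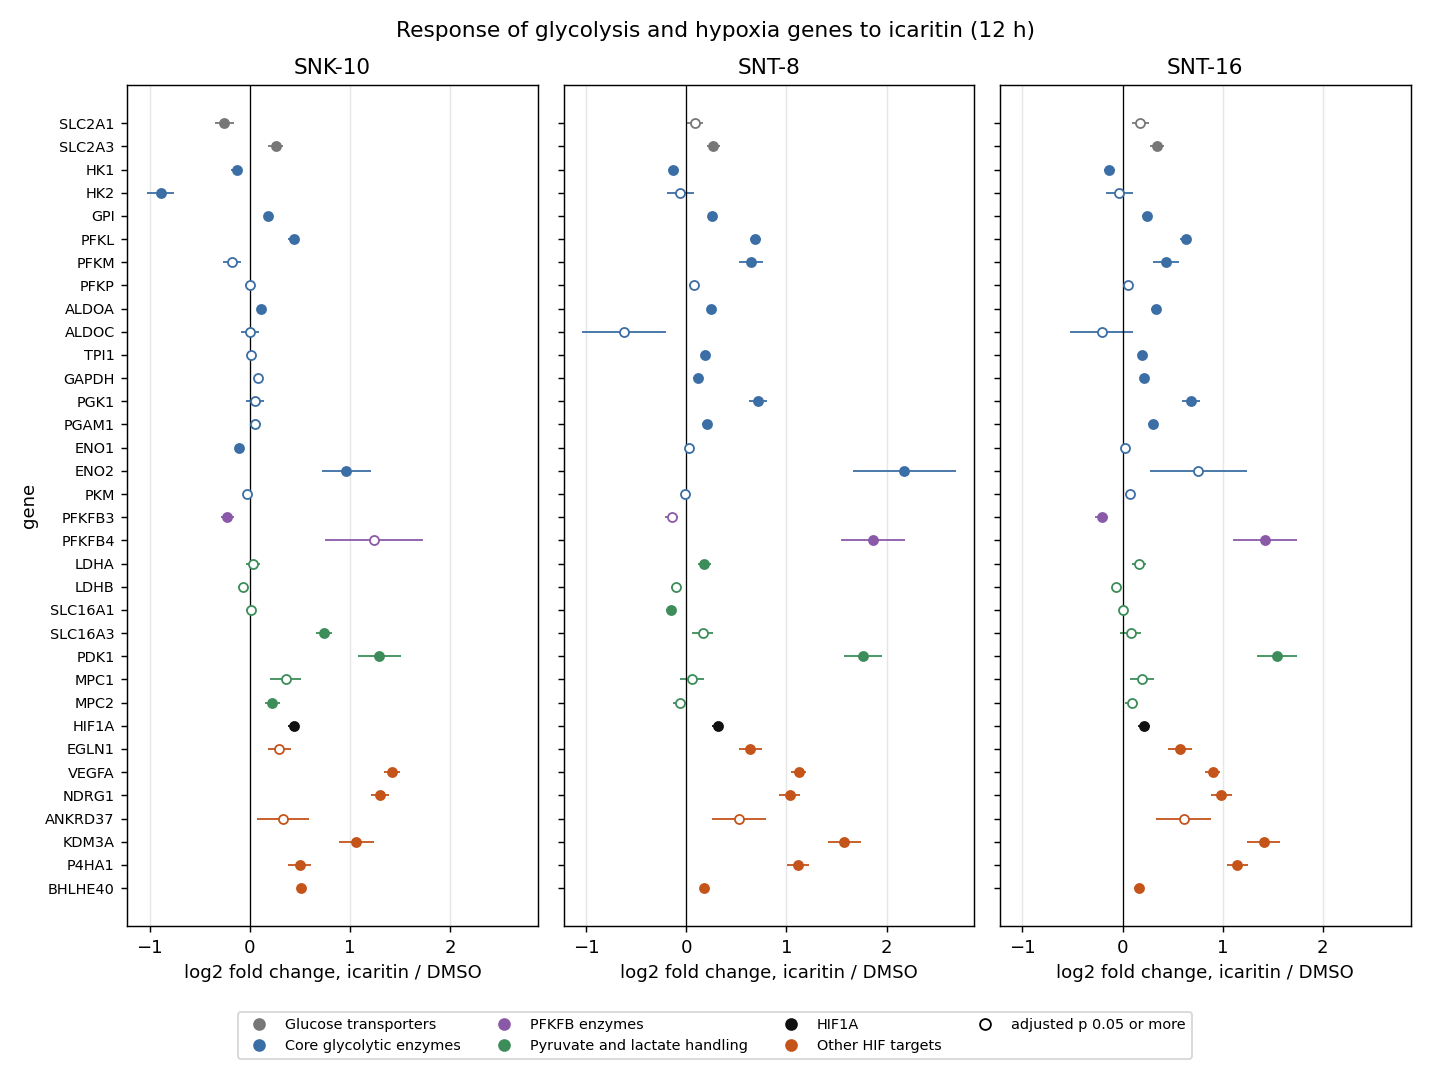
Log2 fold change of icaritin over DMSO for 34 tested genes in SNK-10, SNT-8 and SNT-16, with bars for the standard error and open circles for adjusted p of 0.05 or more. HIF targets outside glucose metabolism, in orange, lie right of 0 in each panel, and most core enzymes, in blue, lie closer to it; PFKFB2, with almost no counts in the SNT lines, is not drawn.

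The core enzymes and the other HIF targets were then set side by side, with no test between the classes. Among 15 core enzymes, 4 rose and 3 fell in SNK-10, 9 rose and 1 fell in SNT-8, and 8 rose and 1 fell in SNT-16. These are 26.7% higher and 20% lower in SNK-10, close to the 24.4% and 24% of all genes, 60% and 6.67% in SNT-8, beside 24% and 25%, and 53.3% and 6.67% in SNT-16, beside 21.2% and 20.8%. Their median log2 fold changes were 0.01, 0.19 and 0.21 in these 3 lines. The 7 tested HIF targets outside glucose metabolism had 5 genes higher for SNK-10, 6 for SNT-8 and 6 for SNT-16, with none lower (71.4%, 85.7% and 85.7% higher, beside the same shares of all genes). Their median log2 fold changes were 0.51, 1.03 and 0.90, where the median over all genes tested was 0.01, 0.02 and 0.02. Without icaritin replicate 2 of SNT-8 the SNT-8 medians were 0.11 for the core enzymes and 0.90 for the HIF targets.

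Library by library the picture was as follows. Relative to the DMSO mean of its line, the mean log2 level of the 7 HIF targets lay at 0.73 to 0.81 in the SNK-10 icaritin libraries, against -0.11 to 0.06 in DMSO. It lay at 0.74 to 1.08 in SNT-8 with icaritin, against -0.06 to 0.09 in DMSO, and at 0.82 in each SNT-16 icaritin library, against -0.01 to 0.01 in DMSO. The mean over the 15 core enzymes lay at 0.01 to 0.06 in SNK-10 with icaritin, against -0.02 to 0.03 in DMSO, so that these groups overlapped. It lay at 0.17 to 0.38 in SNT-8 with icaritin, against -0.03 to 0.02 in DMSO, and at 0.18 to 0.28 in SNT-16 with icaritin, against -0.05 to 0.07 in DMSO. In the SNT lines the icaritin and DMSO libraries did not overlap for either class. The median over the core enzymes, which a rare gene such as ENO2 moves less than the mean, lay at 0.09, 0.31 and 0.10 in SNT-8 with icaritin, against -0.01 to 0.00 in DMSO, with replicate 2 the highest. In SNT-16 that median lay at 0.14 to 0.25 with icaritin, against -0.03 to 0.02 in DMSO.

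**Figure D2:**
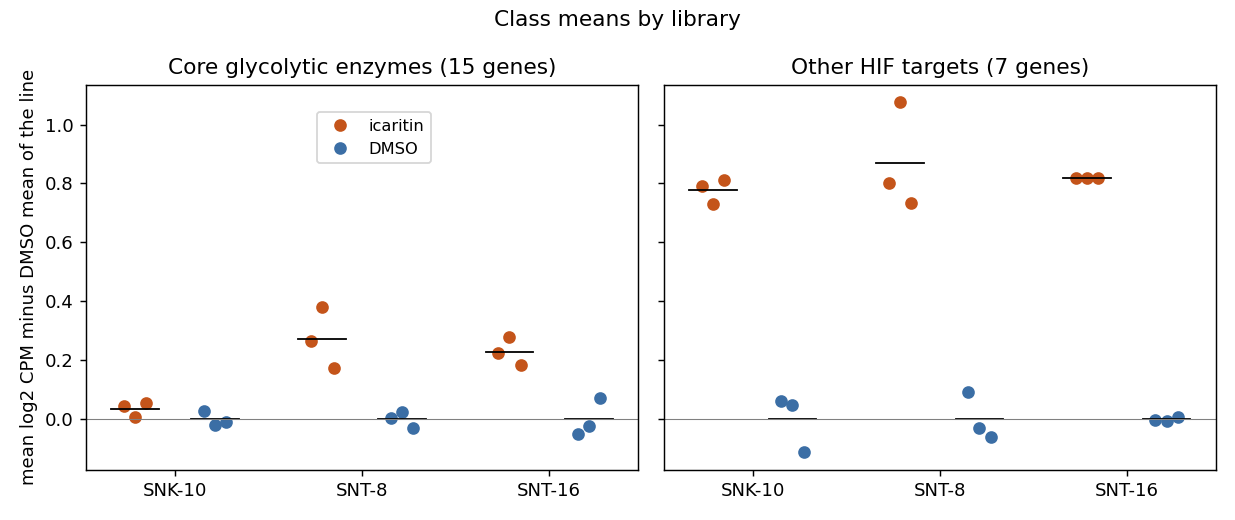
Mean log2 CPM of the 15 core enzymes (left) and of the 7 tested HIF targets outside glucose metabolism (right), relative to the DMSO mean of the line; each point is a library and each line a group mean. The HIF targets of the icaritin libraries lie at 0.73 or above in each line, and the core enzymes of SNK-10 stay within 0.06 of 0.

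HIF1A itself, the oxygen-labile subunit, rose in each line. CPM here are counts scaled to library size. In SNK-10 it stood at 266, 267 and 301 CPM after icaritin, against 204, 200 and 213 CPM after DMSO. In SNT-8 the levels were 194, 237 and 198 CPM after icaritin, against 173, 170 and 164 CPM after DMSO, and in SNT-16 they were 179, 179.7 and 174 CPM after icaritin, against 156, 146 and 156 CPM after DMSO. All icaritin libraries lay above all DMSO libraries of their line, with log2 fold changes of 0.44 ± 0.06 in SNK-10, 0.31 ± 0.06 in SNT-8 and 0.22 ± 0.06 in SNT-16 (± SE; adjusted p 7.63e-08, 2.93e-05 and 0.00306). In the annotation HIF1A overlaps the antisense gene HIF1A-AS2, which averaged 51.9 CPM and had log2 fold changes of 0.42, 0.27 and 0.28; whether counting used strand is not given in the sources used here, so reads of the 2 genes may not be separable. These are RNA levels, and HIF activity depends largely on the stability of the protein, which was not measured.

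VEGFA and NDRG1, a stress-response gene raised by hypoxia, had their largest fold changes in SNK-10. VEGFA stood at 57.3, 52.9 and 55.9 CPM after icaritin, against 20, 21.4 and 20.6 CPM after DMSO, in SNK-10. In SNT-8 it stood at 65.4, 71.9 and 58.7 CPM after icaritin, against 29.04, 28.7 and 32.1 CPM after DMSO, and in SNT-16 at 59.1, 65.05 and 56.8 CPM after icaritin, against 31.7, 32.6 and 32.7 CPM after DMSO. The groups did not overlap in any line, and the log2 fold changes were 1.42 ± 0.08 in SNK-10, 1.12 ± 0.07 in SNT-8 and 0.90 ± 0.07 in SNT-16 (adjusted p 1.17e-17, 7.13e-16 and 4.99e-13). The SNK-10 response of VEGFA exceeded that of SNT-16 by 0.52 ± 0.11 on the log2 scale (adjusted p = 0.00105); the difference from SNT-8 did not pass (0.30 ± 0.11, adjusted p = 0.0845).

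NDRG1 stood at 53.5, 49.5 and 52.2 CPM after icaritin, against 20.7, 22.9 and 19.6 CPM after DMSO, in SNK-10. Its SNT-8 levels were 27.1, 33.3 and 24.8 CPM after icaritin, against 14.7, 14.2 and 12.8 CPM after DMSO, and its SNT-16 levels 26.99, 25.96 and 28.1 CPM after icaritin, against 13.7, 15.1 and 12.2 CPM after DMSO. No icaritin library overlapped the DMSO libraries of its line. The log2 fold changes were 1.30 ± 0.09 in SNK-10, 1.03 ± 0.10 in SNT-8 and 0.99 ± 0.10 in SNT-16 (adjusted p 3.48e-15, 5.56e-11 and 2.68e-10). The test of a difference between lines gave an adjusted p of 0.204, and 0.0435 without icaritin replicate 2 of SNT-8.

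KDM3A and P4HA1, a collagen prolyl hydroxylase subunit, rose in each line. KDM3A stood at 61.4, 61.1 and 62.2 CPM after icaritin, against 31.7, 27.5 and 29.2 CPM after DMSO, in SNK-10. SNT-8 had 86.8, 115 and 66.5 CPM after icaritin, against 29.9, 26.5 and 33.5 CPM after DMSO, and SNT-16 had 85.7, 80.5 and 79.6 CPM after icaritin, against 32.9, 28.4 and 31.2 CPM after DMSO. The 3 DMSO groups had nearly the same level and lay below all icaritin libraries. The log2 fold changes of KDM3A were 1.06 ± 0.17 in SNK-10, 1.58 ± 0.16 in SNT-8 and 1.41 ± 0.16 in SNT-16 (adjusted p 0.000182, 2.45e-06 and 9.58e-06). A difference between lines was not detected for KDM3A (adjusted p = 0.336).

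P4HA1 stood at 75.7, 66.1 and 81.6 CPM after icaritin, against 52.6, 51.3 and 54.4 CPM after DMSO, in SNK-10. SNT-8 showed 91.9, 126 and 89.6 CPM after icaritin, against 48.3, 47.6 and 46.2 CPM after DMSO, and SNT-16 showed 114, 107 and 108 CPM after icaritin, against 52.4, 45.8 and 50.5 CPM after DMSO. Again the groups were separate in each line, with log2 fold changes of 0.50 ± 0.11 in SNK-10, 1.11 ± 0.11 in SNT-8 and 1.15 ± 0.11 in SNT-16 (adjusted p 0.00166, 2.43e-07 and 1.86e-07). The SNK-10 response differed from that of SNT-8 by -0.62 ± 0.16 and from that of SNT-16 by -0.65 ± 0.16 on the log2 scale (adjusted p = 0.0187 and 0.012).

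BHLHE40, a transcriptional repressor that HIF induces, was the most abundant HIF target among the members. In SNK-10 its levels were 622, 646 and 616 CPM after icaritin, against 429.5, 432 and 458 CPM after DMSO. In SNT-8 they were 902, 789.9 and 919 CPM after icaritin, against 784, 780.1 and 739.5 CPM after DMSO, and in SNT-16 736, 749.6 and 742 CPM after icaritin, against 667, 675 and 651 CPM after DMSO. The groups were separate in each line, though icaritin replicate 2 of SNT-8, the highest library for most members, was the lowest icaritin library for BHLHE40. The log2 fold changes were 0.51 ± 0.05 in SNK-10, 0.18 ± 0.05 in SNT-8 and 0.16 ± 0.05 in SNT-16 (adjusted p 8.78e-12, 0.00126 and 0.00465), and the SNK-10 response was larger by 0.33 ± 0.07 than that of SNT-8 and by 0.35 ± 0.07 than that of SNT-16 (adjusted p = 0.00055 and 0.000223).

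EGLN1, the main HIF prolyl hydroxylase and itself a HIF target, had 109 to 111 CPM after icaritin, against 84.2 to 93.7 CPM after DMSO in SNK-10, 101 to 153 CPM after icaritin, against 75.8 to 80.3 CPM after DMSO in SNT-8 and 98.5 to 112 CPM after icaritin, against 69.5 to 73.7 CPM after DMSO in SNT-16. It rose in SNT-8 (0.64 ± 0.12, adjusted p = 0.000333) and SNT-16 (0.57 ± 0.12, adjusted p = 0.00113). In SNK-10 its log2 fold change of 0.29 ± 0.12 missed the threshold (adjusted p = 0.0517), although the groups did not overlap; edgeR's quasi-likelihood test on the 6 SNK-10 libraries alone gave an adjusted p of 7.94e-05. Icaritin replicate 2 of SNT-8 was the highest library for EGLN1, at 153 CPM; without it the SNT-8 change was 0.44. ANKRD37, an ankyrin repeat gene induced by HIF, lay between 1.502 and 4.06 CPM in all libraries and did not pass in any line, with log2 fold changes of 0.33 ± 0.26 in SNK-10, 0.53 ± 0.27 in SNT-8 and 0.61 ± 0.27 in SNT-16; it passed over the mean of the 3 (0.49 ± 0.15, adjusted p = 0.00576).

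**Figure D3:**
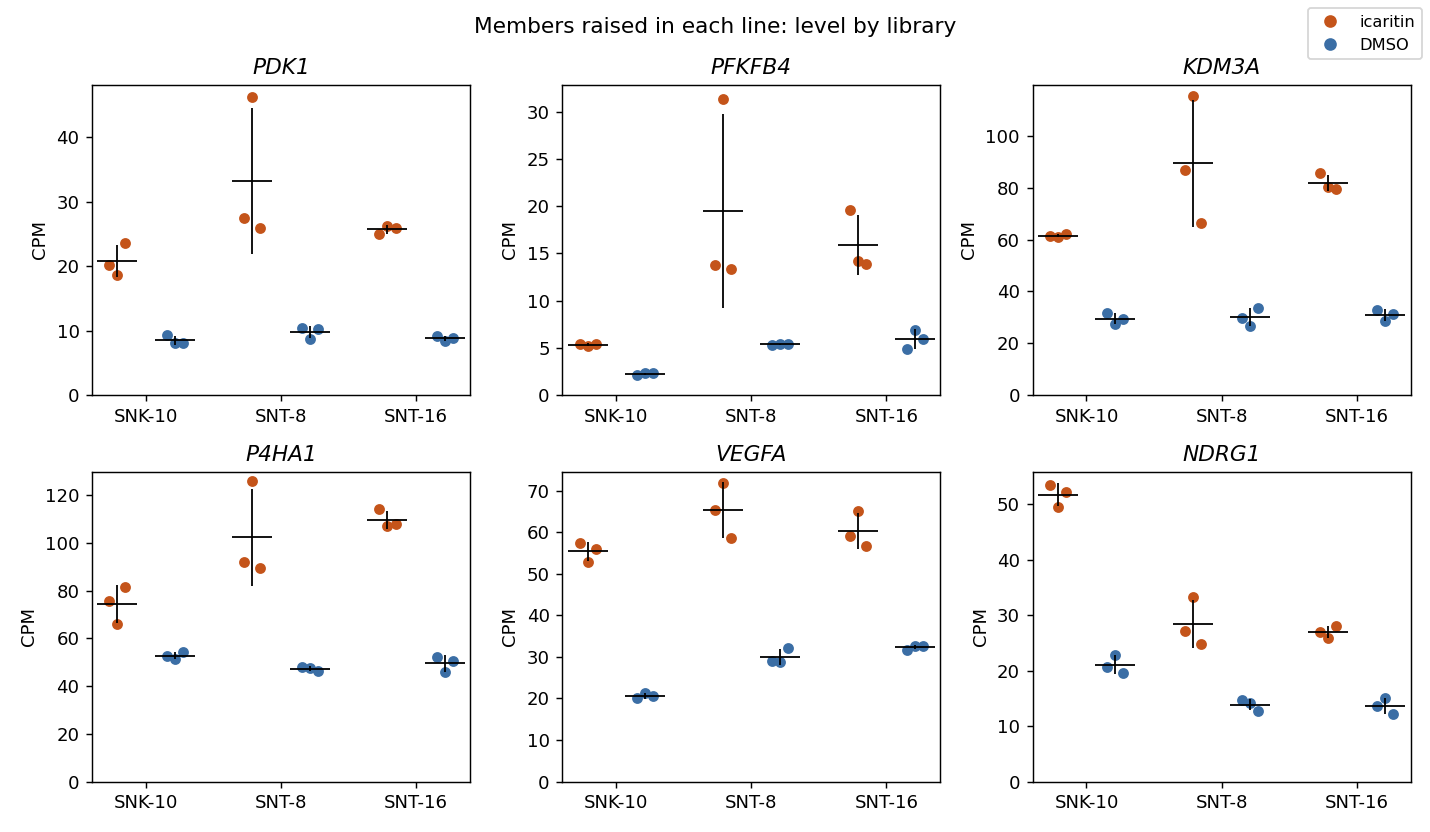
Level in CPM (counts scaled to library size) of PDK1, PFKFB4, KDM3A, P4HA1, VEGFA and NDRG1 in each library, icaritin in orange and DMSO in blue, with the mean and SD of 3 libraries in black. The icaritin libraries lie above the DMSO libraries of their line in each panel, and icaritin replicate 2 of SNT-8 is the highest of its group.

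Other HIF targets and the oxygen-sensing machinery were looked at through lists of related genes. Further HIF targets, 25 of them tested, gave 12 higher and 5 lower calls in SNK-10, 12 and 4 in SNT-8, and 12 and 4 in SNT-16. That is 48% higher and 20% lower in SNK-10, beside 24.4% and 24% of all genes, 48% and 16% in SNT-8, beside 24% and 25%, and 48% and 16% in SNT-16, beside 21.2% and 20.8%. RORA, a nuclear receptor gene, had log2 fold changes of 1.23 ± 0.06 in SNK-10, 1.06 ± 0.06 in SNT-8 and 0.80 ± 0.06 in SNT-16 (adjusted p 1.16e-20, 1.53e-18 and 1.64e-14). RIOK3, an atypical kinase, had 0.65 ± 0.06 in SNK-10, 0.72 ± 0.06 in SNT-8 and 0.63 ± 0.06 in SNT-16, and KDM4B, a histone demethylase, had 0.61 ± 0.08 in SNK-10, 1.03 ± 0.08 in SNT-8 and 0.61 ± 0.08 in SNT-16; both rose in each line. DDIT4, an inhibitor of mTORC1 that other stresses also induce, rose by 0.46 ± 0.05 in SNK-10, 0.45 ± 0.05 in SNT-8 and 0.34 ± 0.04 in SNT-16. BNIP3, a mitophagy receptor, rose in each line by 2.17 ± 0.35 in SNK-10, 1.82 ± 0.59 in SNT-8 and 2.16 ± 0.64 in SNT-16 but stayed at or below 5.70 CPM. WSB1, a ubiquitin ligase subunit, was among those that fell in SNK-10 (-0.30 ± 0.06, adjusted p = 0.000172). It rose in SNT-16 (0.17 ± 0.06, adjusted p = 0.0202) and had 0.06 ± 0.06 in SNT-8. The lowest log2 fold changes in the list, called or not, were -0.98 in SNK-10, -0.91 in SNT-8 and -1.85 in SNT-16. The other genes called lower are not named here, and WSB1 does not stand for them.

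The 13 tested genes of oxygen sensing and HIF subunits went both ways, with 4 higher and 5 lower in SNK-10, 3 and 4 in SNT-8, and 2 and 2 in SNT-16. These are 30.8% and 38.5%, 23.1% and 30.8%, and 15.4% and 15.4%, so that in SNT-16 both shares lay below the 21.2% and 20.8% of all genes. CITED2, which competes with HIF for its coactivator, fell in each line (-0.62 ± 0.05 in SNK-10, -0.21 ± 0.05 in SNT-8 and -0.22 ± 0.05 in SNT-16; adjusted p 1.60e-12, 0.000611 and 0.000209). VHL, the recognition subunit of the ligase that degrades HIF, rose in each (0.21 ± 0.06 in SNK-10, 0.35 ± 0.06 in SNT-8 and 0.16 ± 0.06 in SNT-16), and RBX1, another subunit of that ligase, fell in each (-0.29 ± 0.07 in SNK-10, -0.26 ± 0.07 in SNT-8 and -0.25 ± 0.07 in SNT-16). EGLN2, a further prolyl hydroxylase, fell in SNK-10 (-0.37 ± 0.07, adjusted p = 1.83e-05) and had -0.12 ± 0.07 in SNT-8 and -0.10 ± 0.07 in SNT-16. EPAS1, the second HIF alpha subunit, rose in SNK-10 (1.00 ± 0.18, adjusted p = 2.11e-05); the SNT lines had almost no counts of it.

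Promoter sequences are shown for 4 members with icaritin libraries above DMSO in each line (PDK1, KDM3A, P4HA1 and PFKFB4), for PGK1, whose response differed between lines, and for PKM, which did not pass. They are RefSeq sequences on the GRCh38.p14 build, given 5′ to 3′ on the strand of the gene, from 250 bases before to 50 after its start. Capitals mark ACGTG or GCGTG, the core of the hypoxia response element, searched on both strands, so that a capital run may be the reverse complement (CACGT or CACGC). PDK1 lies at chr2:172555123-172555422, plus strand, KDM3A at chr2:86441121-86441420, plus strand, P4HA1 at chr10:73096817-73097116, minus strand, PFKFB4 at chr3:48556754-48557053, minus strand, PGK1 at chrX:78103998-78104297, plus strand, and PKM at chr15:72231141-72231440, minus strand.
PDK1: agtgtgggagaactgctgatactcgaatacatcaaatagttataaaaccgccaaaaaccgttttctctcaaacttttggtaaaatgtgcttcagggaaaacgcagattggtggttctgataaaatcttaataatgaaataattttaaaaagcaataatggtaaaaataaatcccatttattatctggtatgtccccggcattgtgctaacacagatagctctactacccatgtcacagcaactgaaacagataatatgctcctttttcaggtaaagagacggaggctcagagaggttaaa
KDM3A: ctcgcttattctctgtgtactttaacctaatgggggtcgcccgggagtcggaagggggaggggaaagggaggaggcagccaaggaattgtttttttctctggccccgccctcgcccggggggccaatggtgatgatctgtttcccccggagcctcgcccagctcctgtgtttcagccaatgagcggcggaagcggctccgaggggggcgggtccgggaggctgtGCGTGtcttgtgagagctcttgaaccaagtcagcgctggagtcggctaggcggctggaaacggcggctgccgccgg
P4HA1: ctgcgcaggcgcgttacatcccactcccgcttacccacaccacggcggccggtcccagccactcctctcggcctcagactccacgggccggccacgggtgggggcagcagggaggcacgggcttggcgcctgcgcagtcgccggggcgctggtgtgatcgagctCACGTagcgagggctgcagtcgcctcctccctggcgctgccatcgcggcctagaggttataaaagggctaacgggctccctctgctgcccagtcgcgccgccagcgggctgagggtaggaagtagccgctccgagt
PFKFB4: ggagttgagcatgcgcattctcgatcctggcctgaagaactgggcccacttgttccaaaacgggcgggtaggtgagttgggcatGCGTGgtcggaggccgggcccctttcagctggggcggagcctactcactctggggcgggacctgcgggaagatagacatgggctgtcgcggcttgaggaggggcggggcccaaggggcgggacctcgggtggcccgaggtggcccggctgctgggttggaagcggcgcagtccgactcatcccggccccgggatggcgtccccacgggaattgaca
PGK1: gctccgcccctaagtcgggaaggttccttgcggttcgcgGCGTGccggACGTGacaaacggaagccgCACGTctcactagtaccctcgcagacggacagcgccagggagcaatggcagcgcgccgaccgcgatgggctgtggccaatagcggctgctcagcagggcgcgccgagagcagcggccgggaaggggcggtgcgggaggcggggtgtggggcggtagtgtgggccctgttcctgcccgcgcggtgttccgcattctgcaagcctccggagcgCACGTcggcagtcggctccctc
PKM: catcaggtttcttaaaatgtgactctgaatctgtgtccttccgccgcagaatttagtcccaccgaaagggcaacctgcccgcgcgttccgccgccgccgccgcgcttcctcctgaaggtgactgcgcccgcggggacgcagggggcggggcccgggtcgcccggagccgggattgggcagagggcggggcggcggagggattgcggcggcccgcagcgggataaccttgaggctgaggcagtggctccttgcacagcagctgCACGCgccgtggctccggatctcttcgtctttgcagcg

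The motif was common. It was present in 48.4% of the 27305 promoters of the same length given by RefSeq here and in 61.7% of the 11223 that belong to tested genes. Of the 15 core enzymes 10 had it, and of the 7 other HIF targets with a promoter in that resource, 6 had it. These 7 are not the 7 tested HIF targets. They include EGLN3 and ADM, which were not tested, and lack VEGFA and NDRG1, for which no promoter was available. PGK1 had 4 starts, at -211, -202, -183 and +29 from the gene start, P4HA1 had 1 at -86, KDM3A 1 at -26, PFKFB4 1 at -166 and PKM 1 at +13. PDK1, with the largest log2 fold change of the 35 members over the mean of lines, had none in these 300 bases. Only 1 annotated start per gene was searched, and whether these cells use that start was not tested. A match is a description of sequence and not a site; a CACGTG contains the motif on both strands and gives 2 adjacent starts. Of the 37 members, 32 had a promoter in that resource, matched by NCBI Gene ID. SLC2A3, PFKFB2, SLC16A1, VEGFA and NDRG1 had none.

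Glucose enters through SLC2A1 and SLC2A3, the transporters GLUT1 and GLUT3. SLC2A3 stood at 89.2, 83.02 and 87.5 CPM after icaritin, against 75.7, 68.2 and 73.4 CPM after DMSO, in SNK-10. SNT-8 gave 117, 151 and 124 CPM after icaritin, against 116, 106 and 104 CPM after DMSO, and SNT-16 gave 143, 139 and 132 CPM after icaritin, against 111, 112 and 103 CPM after DMSO. It rose in each line without overlap, by 0.26 ± 0.07 in SNK-10, 0.27 ± 0.07 in SNT-8 and 0.34 ± 0.07 in SNT-16 on the log2 scale (adjusted p 0.00393, 0.00105 and 7.48e-05). Without icaritin replicate 2 of SNT-8 the SNT-8 change was 0.15 (adjusted p = 0.0231). Its close copy SLC2A14 did not exceed 0.69 CPM.

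SLC2A1, a classical HIF target, fell in SNK-10 and did not pass in the SNT lines. It stood at 50.3, 46.5 and 44.1 CPM after icaritin, against 58.95, 54.3 and 54.8 CPM after DMSO, in SNK-10, where every icaritin library was lower. In SNT-8 the levels were 57.5, 77.8 and 55.1 CPM after icaritin, against 59.9, 60.05 and 59.7 CPM after DMSO, which overlapped, and in SNT-16 63.5, 68.01 and 68.3 CPM after icaritin, against 56.8, 61.3 and 58.4 CPM after DMSO, where every icaritin library was higher. The log2 fold changes were -0.25 ± 0.09 in SNK-10, 0.08 ± 0.08 in SNT-8 and 0.18 ± 0.08 in SNT-16 (adjusted p 0.0206, 0.435 and 0.0914). In SNT-8 the value turned to -0.09 without its icaritin replicate 2 (adjusted p = 0.289). The SNK-10 call was lost on leaving out SNK-10 DMSO replicate 1, SNK-10 icaritin replicate 2 or SNK-10 icaritin replicate 3 (adjusted p 0.0651 to 0.107), and in SNT-16 the fit to the 6 libraries of that line called it higher (adjusted p = 0.00537). The 3-line test of a difference (0.0353) was lost on leaving out SNK-10 DMSO replicate 1, 2 or 3, SNK-10 icaritin replicate 2 or 3, SNT-8 DMSO replicate 1, 2 or 3, SNT-16 DMSO replicate 1 or 3, or SNT-16 icaritin replicate 2 or 3 (adjusted p 0.0556 to 0.125). The responses of SNK-10 and SNT-16 differed by -0.43 ± 0.12 (adjusted p = 0.0192).

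Hexokinases trap glucose as glucose 6-phosphate. HK2 stood at 51.3, 45.7 and 51.4 CPM after icaritin, against 88.3, 95.8 and 90.9 CPM after DMSO, in SNK-10. SNT-8 held 62.7, 86.3 and 52.01 CPM after icaritin, against 67.9, 68.7 and 72.5 CPM after DMSO, and SNT-16 held 65.2, 56.2 and 56.6 CPM after icaritin, against 62.7, 60.04 and 59.3 CPM after DMSO. The SNK-10 groups were far apart and those of both SNT lines overlapped. The log2 fold changes were -0.89 ± 0.14 in SNK-10, -0.06 ± 0.13 in SNT-8 and -0.03 ± 0.14 in SNT-16 (adjusted p 7.99e-05, 0.755 and 0.88), and the SNK-10 response differed from that of SNT-8 by -0.83 ± 0.19 and from that of SNT-16 by -0.86 ± 0.19 (adjusted p = 0.0117 and 0.0098). Without icaritin replicate 2 of SNT-8, at 86.3 CPM, HK2 also fell in SNT-8 (-0.28, adjusted p = 0.00108).

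HK1, the constitutive hexokinase, fell a little in each line. It stood at 149, 149.7 and 162 CPM after icaritin, against 174, 170.3 and 161 CPM after DMSO, in SNK-10. In SNT-8 it had 207, 238 and 208 CPM after icaritin, against 245, 230.4 and 238 CPM after DMSO, and in SNT-16 211, 196 and 208 CPM after icaritin, against 234, 226 and 214 CPM after DMSO. The groups overlapped in SNK-10 and SNT-8 and did not in SNT-16. On the log2 scale the changes were -0.13 ± 0.05 in SNK-10, -0.13 ± 0.05 in SNT-8 and -0.13 ± 0.05 in SNT-16 (adjusted p 0.0391, 0.0365 and 0.0395). These calls were near the threshold: leaving out SNK-10 DMSO replicate 1 or 2 or icaritin replicate 1 or 2 ended the SNK-10 call (adjusted p 0.0959 to 0.162), SNT-8 DMSO replicate 1 or 3 or icaritin replicate 1 or 3 the SNT-8 call (0.0728 to 0.183), and SNT-16 DMSO replicate 1 or 2 or icaritin replicate 2 or 3 the SNT-16 call (0.0574 to 0.198). In SNT-8 the change was -0.20 without its icaritin replicate 2 (adjusted p = 0.000842). Over the mean of the 3 lines the change was -0.13 ± 0.03 (adjusted p = 0.000264).

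GPI, which converts glucose 6-phosphate to fructose 6-phosphate, rose in each line. Its levels were 739, 746 and 726 CPM after icaritin, against 655, 647 and 653 CPM after DMSO, in SNK-10. They were 827, 890.4 and 821 CPM after icaritin, against 726, 709 and 693 CPM after DMSO, in SNT-8, and 730, 749 and 749 CPM after icaritin, against 620.4, 627 and 639 CPM after DMSO, in SNT-16. No groups overlapped, and the log2 fold changes were 0.18 ± 0.04 in SNK-10, 0.25 ± 0.04 in SNT-8 and 0.24 ± 0.04 in SNT-16 (adjusted p 0.000405, 1.71e-06 and 6.41e-06).

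Phosphofructokinase, the committed step, is encoded by PFKL, PFKM and PFKP. PFKL, the liver-type gene, stood at 131, 132 and 118 CPM after icaritin, against 96.8, 90.5 and 94.1 CPM after DMSO, in SNK-10. In SNT-8 it stood at 141, 153 and 144 CPM after icaritin, against 87.02, 95.6 and 89.1 CPM after DMSO, and in SNT-16 at 137, 138 and 137 CPM after icaritin, against 83.9, 89.96 and 92.3 CPM after DMSO. The groups were separate in each line, with the 3 DMSO groups at nearly the same level. As log2 fold changes these were 0.44 ± 0.05 in SNK-10, 0.69 ± 0.05 in SNT-8 and 0.63 ± 0.05 in SNT-16 (adjusted p 1.10e-08, 7.79e-14 and 1.59e-12). The difference between lines passed (adjusted p = 0.0456), and the SNK-10 response differed from that of SNT-8 by -0.25 ± 0.08 (adjusted p = 0.0266). The 3-line test did not pass on leaving out any one of 12 libraries: SNK-10 DMSO replicates 1 and 3, SNK-10 icaritin replicates 1 and 3, SNT-8 DMSO replicates 1 and 3, SNT-8 icaritin replicate 2, SNT-16 DMSO replicates 1 and 2 and SNT-16 icaritin replicates 1, 2 and 3 (adjusted p 0.0542 to 0.146).

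PFKM, the muscle-type gene, rose in the SNT lines and did not pass in SNK-10. It stood at 29.4, 30.5 and 30.6 CPM after icaritin, against 35.3, 31.6 and 35.5 CPM after DMSO, in SNK-10. SNT-8 read 16.6, 12.8 and 15.4 CPM after icaritin, against 11.1, 9.01 and 8.51 CPM after DMSO, and SNT-16 read 10.04, 12.4 and 12.6 CPM after icaritin, against 8.05, 9.31 and 8.52 CPM after DMSO. The SNK-10 icaritin libraries lay below those of DMSO and the SNT icaritin libraries above, without overlap. This gave log2 fold changes of -0.18 ± 0.09 in SNK-10, 0.65 ± 0.12 in SNT-8 and 0.44 ± 0.13 in SNT-16 (adjusted p 0.108, 2.48e-05 and 0.00544), and the SNK-10 response differed from that of SNT-8 by -0.82 ± 0.15 (adjusted p = 0.00022) and from that of SNT-16 by -0.62 ± 0.16 (adjusted p = 0.00671). The 6 SNK-10 libraries fitted alone called PFKM lower there (-0.19, adjusted p = 0.0437), opposite to its calls in the SNT lines. PFKM overlaps SENP1, which averaged 98.7 CPM and rose in each line by 0.65, 0.25 and 0.23, so the assignment of reads between them is uncertain. PFKP, the platelet-type gene and the most abundant of the 3, lay between 227 and 275 CPM in all libraries and did not pass in any line (0.00 ± 0.05 in SNK-10, 0.08 ± 0.05 in SNT-8 and 0.05 ± 0.05 in SNT-16).

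ALDOA, the aldolase of most tissues, rose in each line. It stood at 1131, 1088 and 1097 CPM after icaritin, against 1031, 1012 and 1022 CPM after DMSO, in SNK-10. SNT-8 carried 1159, 1343 and 1242 CPM after icaritin, against 1085, 1044 and 1017 CPM after DMSO, and SNT-16 carried 1155, 1235 and 1261 CPM after icaritin, against 933, 1008 and 964 CPM after DMSO. The groups did not overlap, with log2 fold changes of 0.11 ± 0.05 in SNK-10, 0.25 ± 0.05 in SNT-8 and 0.33 ± 0.05 in SNT-16 (adjusted p 0.0431, 1.98e-05 and 2.05e-07). The SNK-10 call did not survive leaving out SNK-10 DMSO replicate 1, 2 or 3, SNK-10 icaritin replicate 1, SNT-8 DMSO replicate 2, SNT-16 DMSO replicate 3 or SNT-16 icaritin replicate 2 or 3 (adjusted p 0.0501 to 0.138). SNK-10 differed from SNT-16 in its response by -0.22 ± 0.07 (adjusted p = 0.0238).

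PGK1 belongs to the later, ATP-forming steps of the pathway. Its level was 620.5, 633 and 692 CPM after icaritin, against 641, 623 and 613 CPM after DMSO, in SNK-10. SNT-8 measured 580, 764 and 546 CPM after icaritin, against 393, 371 and 386 CPM after DMSO, and SNT-16 measured 598, 595 and 602 CPM after icaritin, against 366, 381 and 372 CPM after DMSO. The SNK-10 groups overlapped, the SNT groups did not, and the SNT lines reached under icaritin about the level that SNK-10 had in DMSO. Fitted log2 fold changes were 0.05 ± 0.09 in SNK-10, 0.72 ± 0.09 in SNT-8 and 0.68 ± 0.09 in SNT-16 (adjusted p 0.676, 9.42e-06 and 2.06e-05). In SNK-10 the response differed from that of SNT-8 by -0.67 ± 0.13 (adjusted p = 0.0034) and from that of SNT-16 by -0.63 ± 0.13 (adjusted p = 0.00449); without icaritin replicate 2 of SNT-8 its SNT-8 change was 0.56.

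PGAM1, which moves the phosphate of phosphoglycerate, rose in the SNT lines. It stood at 529.7, 528 and 572 CPM after icaritin, against 540, 519 and 509 CPM after DMSO, in SNK-10. SNT-8 showed levels of 530.4, 646 and 543 CPM after icaritin, against 494, 502 and 494 CPM after DMSO, and SNT-16 of 613, 616 and 657 CPM after icaritin, against 509.5, 517 and 502 CPM after DMSO. The groups overlapped in SNK-10 alone, and the log2 fold changes were 0.06 ± 0.05 in SNK-10, 0.21 ± 0.05 in SNT-8 and 0.30 ± 0.05 in SNT-16 (adjusted p 0.408, 0.00104 and 7.15e-06). Without icaritin replicate 2 of SNT-8 the SNT-8 change was 0.11 (adjusted p = 0.0393). The SNK-10 and SNT-16 responses differed by -0.25 ± 0.07 (adjusted p = 0.0204). The 3-line test of a difference (0.0468) was lost on leaving out any library other than SNK-10 icaritin replicate 3 and SNT-8 icaritin replicates 1, 2 and 3 (adjusted p 0.0522 to 0.14). The near-identical PGAM4 may share reads with it.

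The other core enzymes changed little or were rare. GAPDH, the most abundant member, had 4862 to 5175 CPM after icaritin, against 4594 to 4850 CPM after DMSO in SNK-10, 5148 to 5487 CPM after icaritin, against 4864 to 4881 CPM after DMSO in SNT-8 and 5102 to 5491 CPM after icaritin, against 4503 to 4693 CPM after DMSO in SNT-16. Its log2 fold changes were 0.08 ± 0.04 in SNK-10, 0.11 ± 0.04 in SNT-8 and 0.21 ± 0.04 in SNT-16 (adjusted p 0.0981, 0.0236 and 7.36e-05), and the SNT-8 call was lost without SNT-8 icaritin replicate 2 or SNT-8 DMSO replicate 2 or 3 (adjusted p 0.0585 to 0.126). TPI1, triose phosphate isomerase, rose in SNT-8 and SNT-16 (0.01 ± 0.05 in SNK-10, 0.19 ± 0.05 in SNT-8 and 0.20 ± 0.05 in SNT-16). ENO1, the main enolase, fell in SNK-10 (-0.11 ± 0.04 in SNK-10, 0.03 ± 0.04 in SNT-8 and 0.03 ± 0.04 in SNT-16; adjusted p 0.032, 0.573 and 0.65), a call lost without SNK-10 DMSO replicate 1 or 3 or icaritin replicate 1 or 2 (0.0773 to 0.108). ENO2, the neuronal enolase, rose in SNK-10 and SNT-8, at no more than 7.47 CPM. Its log2 fold changes were 0.96 ± 0.25 in SNK-10, 2.18 ± 0.51 in SNT-8 and 0.75 ± 0.48 in SNT-16 (adjusted p 0.00118, 0.00049 and 0.223). In SNT-8 with DMSO it averaged 0.107 FPKM, so the SNT-8 fold is near the floor. The SNK-10 call was lost under 1 alternative setting (log2 fold change 0.88). ALDOC, the brain-type aldolase, did not pass (0.00 ± 0.09 in SNK-10, -0.62 ± 0.42 in SNT-8 and -0.21 ± 0.31 in SNT-16).

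PKM closes the pathway. It stood at 2699, 2617 and 2746 CPM after icaritin, against 2755, 2731 and 2721 CPM after DMSO, in SNK-10. In SNT-8 there were 3844, 3904 and 3632 CPM after icaritin, against 3862, 3843 and 3772 CPM after DMSO, and in SNT-16 3339, 3533 and 3621 CPM after icaritin, against 3337, 3391 and 3239 CPM after DMSO. The groups overlapped in each line. On the log2 scale the changes were -0.03 ± 0.04 in SNK-10, -0.01 ± 0.04 in SNT-8 and 0.07 ± 0.04 in SNT-16 (adjusted p 0.646, 0.837 and 0.157). The summed level of the 15 core enzymes, in FPKM, which is scaled for gene length, averaged 7504 ± 105 after icaritin and 7478 ± 103 after DMSO in SNK-10, 8903 ± 322 and 7950 ± 28.9 in SNT-8, and 8757 ± 214 and 7556 ± 151 in SNT-16 (SD, n = 3 libraries).

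**Figure D4:**
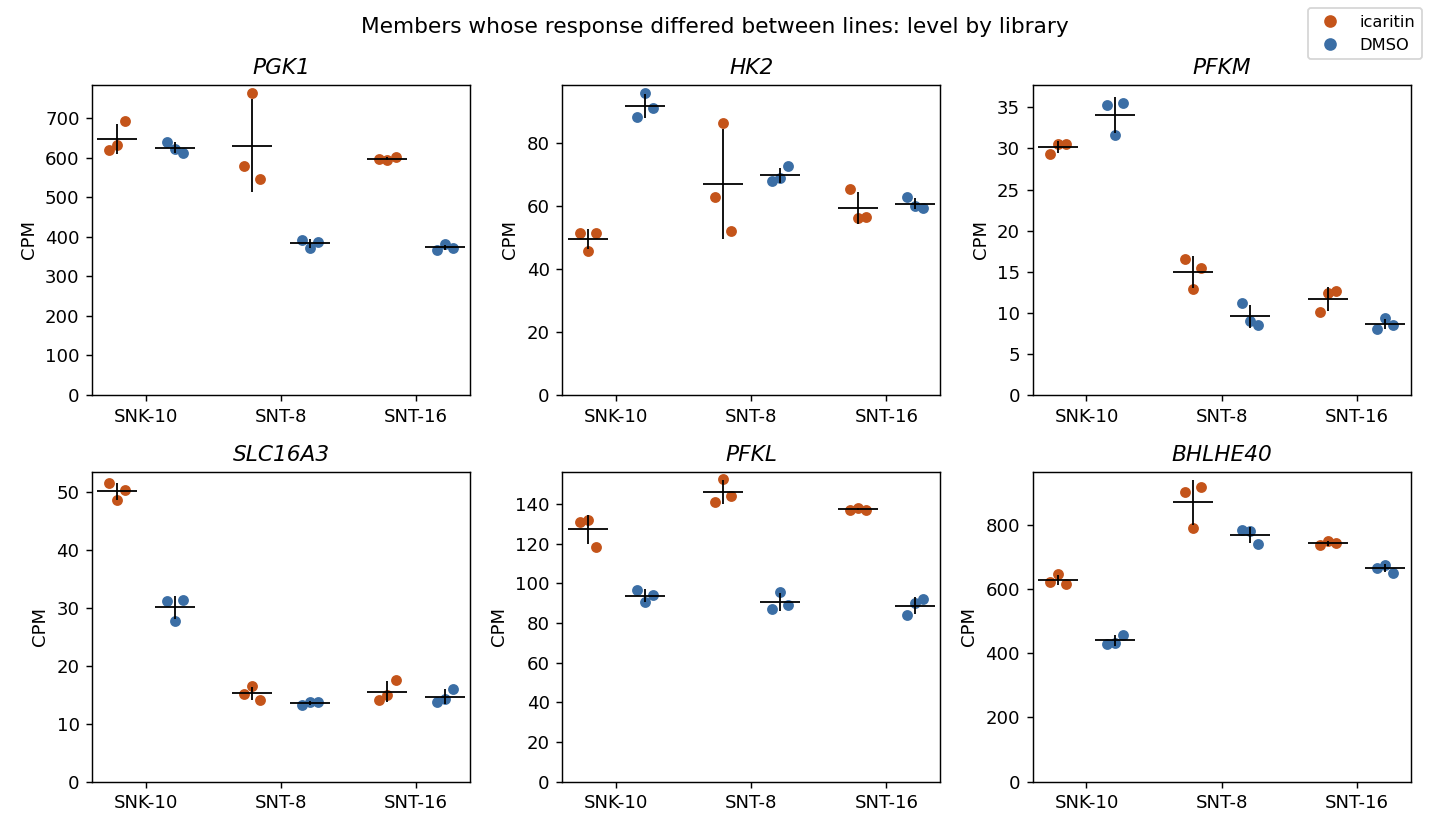
Level in CPM (counts scaled to library size) of PGK1, HK2, PFKM, SLC16A3, PFKL and BHLHE40 in each library, icaritin in orange and DMSO in blue, with the mean and SD of 3 libraries in black. PGK1 differs between treatments in the SNT lines and HK2 and SLC16A3 in SNK-10.

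The PFKFB enzymes make and remove fructose 2,6-bisphosphate, the activator of phosphofructokinase. PFKFB4 had 5.16 to 5.42 CPM after icaritin, against 2.105 to 2.33 CPM after DMSO in SNK-10, 13.4 to 31.4 CPM after icaritin, against 5.26 to 5.41 CPM after DMSO in SNT-8 and 13.9 to 19.6 CPM after icaritin, against 4.89 to 6.93 CPM after DMSO in SNT-16, without overlap in any line. Its log2 fold changes were 1.24 ± 0.49 in SNK-10, 1.86 ± 0.32 in SNT-8 and 1.42 ± 0.32 in SNT-16 (adjusted p 0.0532, 0.000266 and 0.00276). It thus missed the threshold in SNK-10; edgeR's quasi-likelihood test on the 6 SNK-10 libraries alone gave an adjusted p of 3.36e-05. Icaritin replicate 2 of SNT-8 held 31.4 CPM against 13.8 and 13.4 in its replicates, and without it the SNT-8 change was 1.34 (adjusted p = 9.02e-10).

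PFKFB3, the most abundant PFKFB gene and also a HIF target, fell in 2 of the lines. It had 45.5 to 48.3 CPM after icaritin, against 51.6 to 57.2 CPM after DMSO in SNK-10, 38.9 to 42.1 CPM after icaritin, against 42.4 to 48.5 CPM after DMSO in SNT-8 and 38 to 39.4 CPM after icaritin, against 42.7 to 45.6 CPM after DMSO in SNT-16. It fell in SNK-10 and SNT-16 (-0.23 ± 0.07 in SNK-10, -0.15 ± 0.07 in SNT-8 and -0.21 ± 0.07 in SNT-16; adjusted p 0.0039, 0.068 and 0.0113). PFKFB2 stood at 7.798, 8.17 and 6.47 CPM after icaritin, against 4.63, 4.62 and 3.7 CPM after DMSO, in SNK-10. There it rose without overlap, by 0.79 ± 0.23 (adjusted p = 0.00421). In SNT-8 it had 0, 0 and 0.197 CPM after icaritin, against 0.202, 0.304 and 0.1 CPM after DMSO, and in SNT-16 0, 0 and 0 CPM after icaritin, against 0.102, 0.297 and 0.099 CPM after DMSO, at or under 3 counts a library and so no fold is given. Its lower call in SNT-16 was lost without SNT-16 DMSO replicate 2 or SNT-16 icaritin replicate 1, 2 or 3 (adjusted p 0.0587 to 0.12), and without SNT-16 DMSO replicate 2 the 3-line test of a difference was lost (adjusted p = 0.0653). PFKFB2 overlaps YOD1, at 51.6 CPM.

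PDK1 rose in each line. It stood at 20.2, 18.6 and 23.6 CPM after icaritin, against 9.26, 8.08 and 8.14 CPM after DMSO, in SNK-10. In SNT-8 it had levels of 27.5, 46.2 and 25.9 CPM after icaritin, against 10.3, 8.71 and 10.2 CPM after DMSO, and in SNT-16 of 24.9, 26.3 and 25.96 CPM after icaritin, against 9.18, 8.42 and 8.91 CPM after DMSO. Every icaritin library was above every DMSO library of any line. As log2 fold changes these were 1.29 ± 0.21 in SNK-10, 1.77 ± 0.19 in SNT-8 and 1.54 ± 0.20 in SNT-16 (adjusted p 8.84e-05, 7.70e-07 and 8.36e-06), and 1.45 in SNT-8 without icaritin replicate 2. A difference between lines was not detected (adjusted p = 0.522).

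The pyruvate dehydrogenase complex, on which PDK1 acts, had 11 tested genes. Of these 3 rose and 2 fell in SNK-10, 2 rose and 4 fell in SNT-8, and 3 rose and 4 fell in SNT-16. These are 27.3% and 18.2%, 18.2% and 36.4%, and 27.3% and 36.4%, beside 24.4% and 24%, 24% and 25%, and 21.2% and 20.8% of all genes. The genes that fell encode subunits of the complex: DLAT, the acetyltransferase core (-0.14 ± 0.05 in SNK-10, -0.39 ± 0.05 in SNT-8 and -0.26 ± 0.05 in SNT-16), fell in each line, as did PDHA1 (-0.23 ± 0.05 in SNK-10, -0.18 ± 0.05 in SNT-8 and -0.14 ± 0.05 in SNT-16), the alpha subunit of the first enzyme. PDHB, its beta subunit, and DLD, the shared dehydrogenase, fell in SNT-8 and SNT-16 (-0.44 ± 0.07 and -0.27 ± 0.07; -0.22 ± 0.05 and -0.13 ± 0.05). Of the regulators, PDPR, a regulatory subunit of the activating phosphatase, rose in each line (0.44 ± 0.05 in SNK-10, 0.48 ± 0.05 in SNT-8 and 0.32 ± 0.05 in SNT-16). PDK3, a further inactivating kinase, rose in SNT-8 and SNT-16 (0.06 ± 0.08 in SNK-10, 0.49 ± 0.07 in SNT-8 and 0.68 ± 0.07 in SNT-16), with a test of the difference between lines at an adjusted p of 0.00027.

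Lactate dehydrogenase and the lactate transporters showed no common direction. LDHA stood at 1394, 1257 and 1507 CPM after icaritin, against 1395, 1366 and 1308 CPM after DMSO, in SNK-10. In SNT-8 LDHA had 1622, 1901 and 1478 CPM after icaritin, against 1496, 1469 and 1450 CPM after DMSO, and in SNT-16 1599, 1597 and 1573 CPM after icaritin, against 1448, 1390 and 1420 CPM after DMSO. The groups overlapped in SNK-10 and SNT-8 and were separate in SNT-16. This gave log2 fold changes of 0.03 ± 0.07 in SNK-10, 0.18 ± 0.07 in SNT-8 and 0.16 ± 0.07 in SNT-16 (adjusted p 0.74, 0.0306 and 0.0554). The SNT-8 call was lost without SNT-8 icaritin replicate 2 (0.07, adjusted p = 0.241) and without any SNT-8 DMSO replicate (1, 2 or 3; adjusted p 0.0559 to 0.0894), and the SNT-16 libraries fitted alone gave an adjusted p of 9.77e-06. LDHB, the heart-type subunit, lay between 585 and 758 CPM and did not pass in any line (-0.07 ± 0.05 in SNK-10, -0.10 ± 0.05 in SNT-8 and -0.06 ± 0.05 in SNT-16). It passed as lower in SNT-8 without icaritin replicate 2 of SNT-8 (-0.13, adjusted p = 0.0289) and in SNK-10 without icaritin replicate 3 of SNK-10 (-0.14, adjusted p = 0.0118).

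SLC16A3, the lactate exporter MCT4, rose in SNK-10. It stood at 51.5, 48.5 and 50.2 CPM after icaritin, against 31.2, 27.7 and 31.3 CPM after DMSO, in SNK-10. SNT-8 contained 15.1, 16.4 and 14.2 CPM after icaritin, against 13.2, 13.7 and 13.8 CPM after DMSO, and SNT-16 contained 14.03, 15 and 17.5 CPM after icaritin, against 13.7, 14.3 and 16.04 CPM after DMSO. The rise in SNK-10 was far outside the spread, the SNT-8 groups were close but separate and the SNT-16 groups overlapped. Fitted log2 fold changes were 0.74 ± 0.08 in SNK-10, 0.16 ± 0.10 in SNT-8 and 0.08 ± 0.10 in SNT-16 (adjusted p 4.30e-10, 0.2 and 0.575), and the SNK-10 response exceeded that of SNT-8 by 0.57 ± 0.13 (adjusted p = 0.00285) and that of SNT-16 by 0.66 ± 0.13 (adjusted p = 0.000434). It overlaps CSNK1D, at 98.9 CPM, which did not pass in any line. SLC16A1, the transporter MCT1, fell in SNT-8 (-0.15 ± 0.04, adjusted p = 0.00287) and had 0.01 ± 0.05 in SNK-10 and 0.01 ± 0.04 in SNT-16.

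MPC1 and MPC2 form the mitochondrial pyruvate carrier. MPC2 rose in SNK-10 (0.22 ± 0.08 in SNK-10, -0.06 ± 0.07 in SNT-8 and 0.09 ± 0.07 in SNT-16; adjusted p 0.0152, 0.486 and 0.314), a call lost without SNK-10 DMSO replicate 2 or SNK-10 icaritin replicate 3 (adjusted p 0.151 and 0.0581), and MPC1 did not pass in any line (0.36 ± 0.16 in SNK-10, 0.06 ± 0.12 in SNT-8 and 0.19 ± 0.12 in SNT-16). MPC2 overlaps DCAF6, at 39.7 CPM, which fell in each line.

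Responses differed between lines for 11 of the 35 members, beside 14.3% of all genes. They were SLC2A1, HK2, PFKL, PFKM, PGK1, PGAM1, PFKFB2, SLC16A3, VEGFA, P4HA1 and BHLHE40. Between SNK-10 and SNT-8, 7 members differed, 2 with the larger value in SNK-10 and 5 with the smaller, beside 6.69%, 4.08% and, in either direction, 10.8% of all genes; between SNK-10 and SNT-16, 11 differed, 4 and 7, beside 6.74%, 5.77% and 12.5%. Between SNT-8 and SNT-16 none of the 35 differed by edgeR's quasi-likelihood test, beside 0.438% of all genes. Without icaritin replicate 2 of SNT-8, 14 members differed over the 3 lines, with NDRG1, ALDOA, HIF1A and EGLN1 among them (adjusted p 0.0435, 0.0189, 0.0135 and 0.0233). Over all genes the number that differed rose as well, from 2053 of 14396 to 2492 of 14601.

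The lines were also compared under DMSO. In DMSO, 21 members differed between SNK-10 and SNT-8, 10 higher and 11 lower in SNK-10, beside 29.9%, 27.8% and, in either direction, 57.6% of all genes. Against SNT-16, 12 were higher in SNK-10 and 9 lower, beside 30.1%, 27.7% and 57.8%. ALDOC stood at 42.95, 42.8 and 43.1 CPM in SNK-10, 1.11, 1.01 and 0.5 CPM in SNT-8 and 1.12, 1.29 and 1.68 CPM in SNT-16, a log2 difference of 5.60 ± 0.17 for SNK-10 minus SNT-8. PFKM (1.84 ± 0.11), SLC16A3 (1.15 ± 0.09), PGK1 (0.71 ± 0.09), NDRG1 (0.60 ± 0.11) and HK2 (0.40 ± 0.13) were also higher in SNK-10 than in SNT-8.

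Lower in SNK-10 than in SNT-8 were MPC1 (-1.32 ± 0.14), PFKFB4 (-1.25 ± 0.48), BHLHE40 (-0.80 ± 0.05), SLC16A1 (-0.70 ± 0.04), VEGFA (-0.53 ± 0.09), HK1 (-0.50 ± 0.05) and PKM (-0.48 ± 0.04). Each of these 13 genes also differed in the same direction between SNK-10 and SNT-16. The comparisons with SNT-8 and with SNT-16 share the SNK-10 DMSO libraries. The share of all genes that differed alike in both is not given here, so this agreement is not a trait of these genes. SNT-8 and SNT-16 differed in 5 members, all higher in SNT-8, beside 7.34% of all genes higher, 5.89% lower and 13.2% in either direction: BHLHE40 (0.21 ± 0.05), PKM (0.20 ± 0.04), ENO1 (0.18 ± 0.04), GPI (0.17 ± 0.04) and LDHB (0.15 ± 0.05). Both kinds of comparison use the same DMSO libraries, so these levels are not independent of the responses above.

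Set per gene length, the members spanned a wide range of level in DMSO. Averaged over the 9 DMSO libraries, GAPDH had 3352 FPKM, PKM 1254, ENO1 1135, LDHA 633 and ALDOA 596. HK1 had 57.5 FPKM, PFKL 30.6, SLC2A1 15.6, HK2 10.2, VEGFA 9.01 and KDM3A 6.37. PDK1, at 2.08 FPKM, and PFKFB4, at 1.23, were among the lowest.

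Shares within isozyme families, in FPKM, were compared library by library. PFKL made up 28.6% to 29.9% of phosphofructokinase after icaritin and 22.8% to 23.99% after DMSO in SNK-10, 31.2% to 31.7% and 22.6% to 23.95% in SNT-8, and 31.5% to 32.7% and 23.5% to 25.2% in SNT-16. PFKFB4 made up 10.4% to 11.3% of the PFKFB genes after icaritin and 4.17% to 4.89% after DMSO in SNK-10, 28.7% to 46.8% and 11.3% to 13.4% in SNT-8, and 29.8% to 38.4% and 12.2% to 15.2% in SNT-16. Neither share overlapped between treatments in any line.

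HK2 made up 13.4% to 14.9% of hexokinase after icaritin and 20.4% to 22.3% after DMSO in SNK-10, 11.3% to 15.5% and 12.3% to 13.4% in SNT-8, and 12.1% to 13.6% and 11.9% to 12.3% in SNT-16. After icaritin the SNK-10 share thus came close to those of the SNT lines. SLC16A3 made up 40.7% to 42.1% of the 2 monocarboxylate transporters after icaritin and 28.1% to 30.8% after DMSO in SNK-10, and no more than 13.8% in any SNT library. These shares were not tested.

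**Figure D5:**
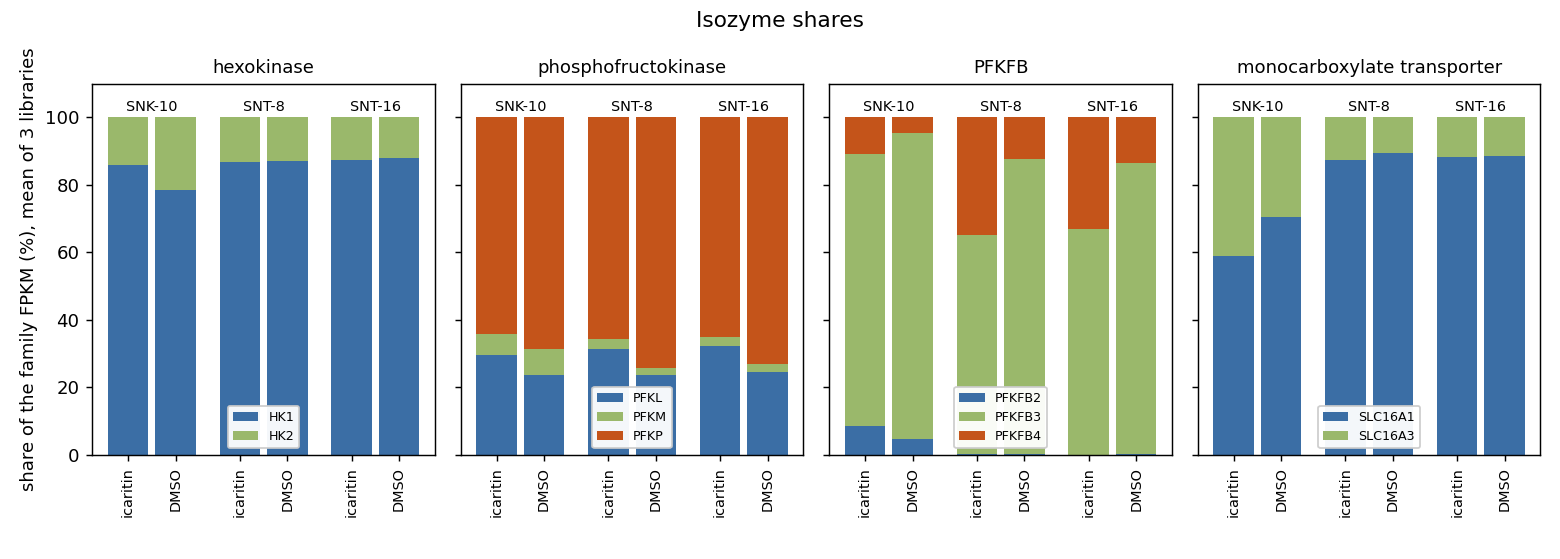
Mean share of each gene in the summed FPKM of its family, in percent, for hexokinase, phosphofructokinase, PFKFB and the monocarboxylate transporters, by line, with icaritin left of DMSO (3 libraries each). The PFKL and PFKFB4 shares are larger with icaritin in each line, and the HK2 and SLC16A3 shares differ most between treatments in SNK-10.

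Neighbouring pathways showed no single direction. Further glycolytic genes, 14 of them tested, gave 2 higher and 4 lower calls in SNK-10, 3 and 2 in SNT-8, and 3 and 1 for SNT-16. These are 14.3% and 28.6%, 21.4% and 14.3%, and 21.4% and 7.14%, beside 24.4% and 24%, 24% and 25%, and 21.2% and 20.8% of all genes. BPGM, which makes 2,3-bisphosphoglycerate, fell in each line (-0.57 ± 0.08 in SNK-10, -0.77 ± 0.09 in SNT-8 and -0.53 ± 0.09 in SNT-16). SLC2A8, an intracellular glucose transporter, rose in each (0.62 ± 0.13 in SNK-10, 0.61 ± 0.13 in SNT-8 and 0.33 ± 0.12 in SNT-16), as did TIGAR, a phosphatase that lowers fructose 2,6-bisphosphate (0.20 ± 0.07 in SNK-10, 0.64 ± 0.07 in SNT-8 and 0.64 ± 0.07 in SNT-16; difference between lines adjusted p = 0.00227). PGM2, a phosphoglucomutase, fell in SNK-10 and SNT-8 (-0.19 ± 0.06 in SNK-10, -0.20 ± 0.06 in SNT-8 and -0.13 ± 0.06 in SNT-16).

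The pentose phosphate pathway had 9 tested genes, with 3 higher and 3 lower in SNK-10, 3 and 2 in SNT-8, and 2 and 2 for SNT-16 (33.3% and 33.3%, 33.3% and 22.2%, and 22.2% and 22.2%, beside the same shares of all genes). TKT, transketolase, fell in each line (-0.41 ± 0.04 in SNK-10, -0.27 ± 0.04 in SNT-8 and -0.33 ± 0.04 in SNT-16). RPE (0.30 ± 0.06 in SNK-10, 0.23 ± 0.06 in SNT-8 and 0.28 ± 0.06 in SNT-16), an epimerase, and SHPK (0.31 ± 0.08 in SNK-10, 0.38 ± 0.08 in SNT-8 and 0.35 ± 0.08 in SNT-16), a sugar kinase, rose in each. Glucose sensing was covered by 3 tested genes. TXNIP, an inhibitor of glucose uptake that glucose itself induces, rose in each line (1.51 ± 0.08 in SNK-10, 1.78 ± 0.12 in SNT-8 and 1.17 ± 0.12 in SNT-16), MLX, a partner of the glucose-sensing factors, fell in each (-0.26 ± 0.05 in SNK-10, -0.48 ± 0.06 in SNT-8 and -0.34 ± 0.06 in SNT-16), and MLXIP did not pass (-0.16 ± 0.08 in SNK-10, 0.02 ± 0.08 in SNT-8 and -0.04 ± 0.08 in SNT-16).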

How the data were processed

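Total RNA of 18 libraries was extracted with Trizol, 1 µg went into an MGIEasy library, and Bowtie2 and HISAT are named in the submitters' processing notes; their versions, the genome build, the use of strand and the quantifier are not stated there or in the labels. Per the file headers, the authors deposited the expected count of each gene, an estimate that need not be whole, and FPKM, scaled by the authors to gene length and library. Genes a library's file does not list counted as 0 there.

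After rounding, the expected counts went into edgeR 4.0.16 (R 4.3.3): filterByExpr (minimum count 10, minimum total 15), TMM scaling, and a robust quasi-likelihood fit with 1 mean for each of 6 groups and 12 residual degrees of freedom (common biological coefficient of variation 4.43%). Tests were two-sided with Benjamini-Hochberg adjustment over 14396 genes and a threshold of 0.05; SE is the absolute log2 fold change over the square root of F. CPM are counts scaled to library size with TMM factors. FPKM, per length, were used to compare genes. A count of 0 allows up to 3 counts. The procedure was also run on simulated counts, drawn with the same spread for all genes and with no library that stood apart. That run cannot speak to calls that such a library moves.

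Replicate numbers did not pair the libraries: deviations of same-numbered icaritin and DMSO libraries correlated between -0.22 and 0.095. Alternatives were other scalings (DESeq2 size factors, library totals, TMM without mitochondrial genes), no low-count filter, DESeq2 1.42.0, limma 3.58.1 on log2(FPKM + 1) and log2(FPKM + 0.1), fits to the 6 libraries of a line, a replicate block, each library left out, and other class definitions. Values in every library are given for members called alike in all 3 lines, for members past the test of a difference between lines, and for PKM, LDHA, SLC2A1, HK2, HIF1A and VEGFA; from each related list up to 4 genes with the smallest p of the mean response are named, plus BNIP3, WSB1, EPAS1, PDHA1 and DLD to say what a mixed list holds; some genes these rules pick are not reported here. Members, lists and rules were chosen with earlier results of these data known. Gene names come from an annotation table of GRCh38.p14 by NCBI Gene ID (21559 of 21662 IDs matched by ID).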

Additional observations from a re-analysis of the deposited data

Results flagged for a closer look

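For 11 members the response to icaritin differed between the 3 lines by edgeR's quasi-likelihood interaction test, each beside the response of SNK-10, SNT-8 and SNT-16 in that order (log2). These were SLC2A1 (adjusted p = 0.0353; -0.25 ± 0.09 in SNK-10, 0.08 ± 0.08 in SNT-8 and 0.18 ± 0.08 in SNT-16), HK2 (0.0101; -0.89 ± 0.14 in SNK-10, -0.06 ± 0.13 in SNT-8 and -0.03 ± 0.14 in SNT-16), PFKL (0.0456; 0.44 ± 0.05 in SNK-10, 0.69 ± 0.05 in SNT-8 and 0.63 ± 0.05 in SNT-16) and PFKM (0.000218; -0.18 ± 0.09 in SNK-10, 0.65 ± 0.12 in SNT-8 and 0.44 ± 0.13 in SNT-16). PGK1 gave 0.00319 (0.05 ± 0.09 in SNK-10, 0.72 ± 0.09 in SNT-8 and 0.68 ± 0.09 in SNT-16), PGAM1 0.0468 (0.06 ± 0.05 in SNK-10, 0.21 ± 0.05 in SNT-8 and 0.30 ± 0.05 in SNT-16), SLC16A3 0.000287 (0.74 ± 0.08 in SNK-10, 0.16 ± 0.10 in SNT-8 and 0.08 ± 0.10 in SNT-16) and VEGFA 0.00322 (1.42 ± 0.08 in SNK-10, 1.12 ± 0.07 in SNT-8 and 0.90 ± 0.07 in SNT-16). P4HA1 gave 0.0145 (0.50 ± 0.11 in SNK-10, 1.11 ± 0.11 in SNT-8 and 1.15 ± 0.11 in SNT-16) and BHLHE40 0.000151 (0.51 ± 0.05 in SNK-10, 0.18 ± 0.05 in SNT-8 and 0.16 ± 0.05 in SNT-16). PFKFB2 gave 0.0164, where the SNT lines had at most 3 counts a library. No group had 4 or more libraries, so single libraries were not screened as outliers by a fixed rule.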

How the results depend on the processing

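Of 63 calls of a member in a line, 52 passed under every setting tried, and of 11 calls of a difference between lines, 7 did (those of PFKFB2, PFKL, PGAM1 and SLC2A1 were each lost under at least 1); no called value reversed. The cause of the following moves was not tested. Members lower numbered 3 in SNK-10 with DESeq2 size factors (main 5), 1 in SNT-8 with library totals, with the 6 libraries of the line or with limma on either FPKM scale (main 2), and 1 in SNT-16 with DESeq2 or either limma fit (main 3). Over all genes, lower calls in SNK-10 numbered 3368 with DESeq2 size factors (main 3459). In SNT-8 they numbered 3163 with library totals, 3317 of 13148 with the 6 libraries of the line, and 3145 and 3113 with limma (main 3602). In SNT-16 they numbered 2639 with DESeq2, and 2739 and 2688 with limma (main 2998). DESeq2 was given all 21662 listed genes, not all of which receive an adjusted p, so 21662 is not a number tested. Members that differed between SNT-8 and SNT-16 in DMSO (main 5, beside 13.2% of all genes) numbered 8 with no low-count filter and 3 with either limma fit. The shares of all genes under those settings are not given here. The HIF target median of SNT-8 was 0.92 with limma on log2(FPKM + 1), against 1.03. With SLC2A1, SLC2A3, PFKFB3, PFKFB4, PDK1 and SLC16A3 added to the HIF targets, their medians were 0.64 in SNT-8, 0.61 in SNT-16 and 0.50 over the mean of lines, against 1.03, 0.90 and 0.92. With at least 1.5-fold also required, members higher and lower numbered 7 and 1 in SNK-10, 11 and 0 in SNT-8, 8 and 1 in SNT-16, and 8 and 1 over the mean. The share of all genes at that fold is not given here, so these counts are not set against it.

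With a replicate block, 1 member was lower in SNT-8, beside 3497 of all 14396 genes, and 2 differed between SNT-8 and SNT-16 in DMSO. For that DMSO comparison the number of all genes under the block is not given here. Higher calls numbered 17 in SNK-10, 20 in SNT-8 and 19 in SNT-16, beside 3412, 3350 and 2915 of all genes. The replicate numbers do not pair these libraries. Leaving out each library in turn, members higher ranged from 13 to 18 in SNK-10, 18 to 20 in SNT-8, 18 to 20 in SNT-16 and 22 to 24 over the mean, and members lower from 2 to 5, 1 to 4, 1 to 3 and 4 to 5. In the same order, all genes called higher ranged from 3148 to 3654, 3052 to 3565, 2640 to 3213 and 4425 to 4568. All genes called lower ranged from 3121 to 3612, 3313 to 3679, 2656 to 3150 and 4208 to 4332, of 14589 to 14616 tested. The HIF target medians ranged from 0.50 to 0.58 in SNK-10, 0.90 to 1.12 in SNT-8, 0.84 to 0.94 in SNT-16 and 0.86 to 0.95 over the mean, and the core medians from -0.0019 to 0.07, 0.11 to 0.23, 0.19 to 0.25 and 0.13 to 0.15. Members with a response that differed between lines numbered 8 to 15, beside 1591 to 2492 of all genes. Those that differed in DMSO numbered 18 to 24 for SNK-10 minus SNT-8, 19 to 21 for SNK-10 minus SNT-16 and 3 to 8 for SNT-8 minus SNT-16. With all libraries, 57.6%, 57.8% and 13.2% of all genes differed in these DMSO comparisons. The ranges over all genes are not given here, so these member counts are not set against them. Depth limits PFKFB2 and EPAS1 in the SNT lines, BNIP3, ENO2, ADM and EGLN3.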
